A study of Homo sapiens with 6 samples.

Results

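The nuclear receptor genes other than those of the retinoic acid (RAR) and retinoid X (RXR) receptors were examined in RNA sequencing of SK-N-BE(2), an established human neuroblastoma cell line. The 40 listed genes were chosen by name, with earlier results of these data known. Of these, 33 were found among the 32434 gene IDs of the deposited table through GENCODE 29. The other 7 (NR1H4, NR1I2, HNF4A, NR2E1, PGR, NR5A1 and NR5A2) were not analysed here. The shMYT1 cells carried hairpin RNA directed at MYT1 (3 libraries), and the control cells are labelled shNC (3 libraries). Per the labels, cells were infected with lentivirus for 24 h and kept in puromycin for 48 h. The labels' genotype field calls the shMYT1 cells a knockout, whereas the protocol describes a knockdown, and MYT1 RNA was lowered, not absent. No label says that the 3 libraries of a group came from separate cultures, so p-values measure only the spread between these samples. The cells are 1 line, and no label gives the number of hairpins.

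MYT1 (ENSG00000196132, chromosome 20, 64102394 to 64242253, plus strand, hg38), the zinc finger transcription factor gene that was targeted, was measured at 4.20, 4.13 and 4.36 FPKM (fragments scaled to exon length and library size) in the shMYT1 libraries, against 5.73, 5.12 and 5.18 FPKM in the shNC libraries. The groups did not overlap, and the mean fell by 20.8% (log2 fold change -0.28, limma adjusted p = 0.0102). The libraries held 18.16 to 20.3 M fragments (M, 10 to the power 6) in shMYT1 and 21.08 to 21.68 M in shNC, as recovered from the deposited values. Markers of noradrenergic neuroblastoma were high in both groups: the 8 marker genes, among them PHOX2A, HAND2 and TH, summed to 1045 to 1084 FPKM in shMYT1 and 1096 to 1205 FPKM in shNC, with 3 members up and 2 down. Among 7 adrenal cortex markers 4 were found, and they summed to 0.670 to 0.837 FPKM in shMYT1 and 0.639 to 0.791 FPKM in shNC. CYP21A2, 1 of these 4, has a near-identical pseudogene. The 7 fibroblast and smooth muscle markers summed to 110.3 to 112.8 FPKM in shMYT1 and 157 to 161.8 FPKM in shNC, with 3 down (LUM, DCN, COL1A1) and 2 up (ACTA2, TAGLN) of 6 tested, and none of the 7 was at 0 throughout. COL1A2, a defining fibroblast gene, reached at most 0.177 FPKM in any library. The 5 of 6 Schwann and glial markers found summed to 2.68 to 3.39 FPKM in shMYT1 and 2.14 to 2.35 FPKM in shNC, with ERBB3 and GFAP at no more than 0.131 FPKM. The part of these marker shifts, or of the lower depth of the shMYT1 libraries, in the receptor results was not tested. In bulk RNA, fewer cells of a type and less RNA per cell cannot be told apart.

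Nuclear receptors are transcription factors, most of which bind DNA through a zinc finger domain and carry a pocket for a small lipophilic ligand. Thyroid hormone, vitamin D, steroid, oxysterol and fatty acid receptors change the coregulators they hold when ligand binds, while many other members are orphans with no accepted natural ligand. Many act as heterodimers with RXR on repeats of the hexamer AGGTCA. In the nervous system the COUP-TF receptors pattern progenitors, the REV-ERB and ROR receptors belong to the circadian clock, and the NR4A receptors are activity-dependent genes. NR0B1 (DAX-1) lacks a classical DNA-binding domain and represses other receptors, best known for SF-1 in the adrenal gland and gonad. MYT1 family proteins bind a short DNA core, AAGTT.

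The promoters of the 5 receptor genes that passed the test are shown because they are the genes whose RNA differed between the groups. Each window holds 250 bases before and 50 bases after a RefSeq transcription start on GRCh38.p14, the same reference genome as hg38. NR1D2, RORB and NR2F1 have another window each. The window at the downstream start is printed for NR1D2 and RORB, where the upstream one held no match, and the upstream window is printed for NR2F1. Capitals mark 3 motifs, searched on both strands. The MYT1 core is AAGTT, which reads AACTT where it lies on the other strand. The receptor hexamer is AGGTCA, which reads TGACCT there. The E-box, to which clock factors bind, is CACGTG and reads the same on both strands. Sequences run 5′ to 3′ on the gene's strand.
NR0B1, chrX:30309341-30309640, minus strand: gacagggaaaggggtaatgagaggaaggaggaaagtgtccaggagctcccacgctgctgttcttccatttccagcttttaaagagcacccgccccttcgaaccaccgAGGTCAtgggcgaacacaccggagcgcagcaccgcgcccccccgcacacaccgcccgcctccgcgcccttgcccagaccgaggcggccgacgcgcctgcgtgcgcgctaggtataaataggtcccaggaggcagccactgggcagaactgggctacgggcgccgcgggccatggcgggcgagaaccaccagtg
NR2F1, chr5:93582972-93583271, plus strand: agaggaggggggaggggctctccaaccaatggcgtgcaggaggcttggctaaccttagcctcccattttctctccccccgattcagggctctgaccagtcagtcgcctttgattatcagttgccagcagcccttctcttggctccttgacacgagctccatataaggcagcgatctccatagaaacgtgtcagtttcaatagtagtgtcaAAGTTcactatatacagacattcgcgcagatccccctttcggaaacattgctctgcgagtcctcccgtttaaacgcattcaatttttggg
RORB, chr9:74615284-74615583, plus strand: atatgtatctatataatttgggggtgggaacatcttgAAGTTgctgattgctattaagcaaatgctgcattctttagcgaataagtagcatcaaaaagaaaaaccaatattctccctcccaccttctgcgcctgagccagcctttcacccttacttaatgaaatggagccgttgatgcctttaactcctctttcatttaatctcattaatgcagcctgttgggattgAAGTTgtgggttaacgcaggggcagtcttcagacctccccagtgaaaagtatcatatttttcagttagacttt
NR1D2, chr3:23945871-23946170, plus strand: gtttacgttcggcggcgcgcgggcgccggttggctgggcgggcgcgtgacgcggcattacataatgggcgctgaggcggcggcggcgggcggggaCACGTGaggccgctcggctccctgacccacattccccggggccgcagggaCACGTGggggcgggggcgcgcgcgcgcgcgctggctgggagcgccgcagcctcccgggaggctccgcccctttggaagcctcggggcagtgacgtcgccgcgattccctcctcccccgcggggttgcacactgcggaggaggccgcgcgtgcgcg
NR1H2, chr19:50376207-50376506, plus strand: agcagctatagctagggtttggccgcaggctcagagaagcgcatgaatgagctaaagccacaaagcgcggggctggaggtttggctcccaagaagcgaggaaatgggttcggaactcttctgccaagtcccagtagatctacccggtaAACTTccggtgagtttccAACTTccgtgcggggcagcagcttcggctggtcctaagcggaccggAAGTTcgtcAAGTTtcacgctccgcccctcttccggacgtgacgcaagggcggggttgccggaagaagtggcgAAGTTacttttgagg

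The NR0B1 window held 1 AGGTCA, at bases -143 to -138 from the start site (the start base is 0), and no AAGTT on either strand. AGGTCA was found on either strand in 13.8% of all 35116 windows of this length and in 14.3% of 70 windows of 28 of the receptor genes. The NR2F1 window shown held 1 AAGTT at -40 to -36, and its other window, downstream, held 4 matches on either strand. NR1H2 held 5 matches. The RORB window shown held 2, at -213 to -209 and -23 to -19, and its other window, upstream, held none. The MYT1 core was found on either strand in 34.0% of all windows and in 37.1% of the receptor windows. The NR1D2 window shown held 2 E-boxes, at -155 to -150 and -105 to -100, and CACGTG was found in 7.26% of all windows and 7.14% of the receptor windows. The RORB and NR1D2 windows shown were printed in place of upstream windows without a match, so the shares per window are not a like comparison for them. These matches are letters in a window and not measured binding.

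The largest difference among the receptors was in NR0B1, which fell in shMYT1 cells by 72.8% of its shNC level. The clock-linked receptor genes RORB and NR1D2 fell by less, and the COUP-TF gene NR2F1 and the oxysterol receptor gene NR1H2 rose. Genes were tested with limma on log2(FPKM + 1) where their mean over the 6 libraries was at least 1 FPKM, which 20 of the 33 receptor genes met. Of these, 2 rose and 3 fell at adjusted p under 0.05, adjusted over all genes tested, and 15 did not pass. That is 25% of the tested receptors, beside 24.2% of all 14106 genes tested, so the share of receptors called was near the background. The median log2 fold change was -0.07 over the 20 receptors and -0.0048 over all genes tested, and the median absolute change was 0.10 and 0.11. The groups did not overlap in 9 of the 20, beside 42.3% of all genes tested. A change of at least 0.5 on the log2 scale either way was seen in 2 of the 20 (NR0B1 and NR2F1), beside 4.67% of all genes tested.

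**Figure D1:**
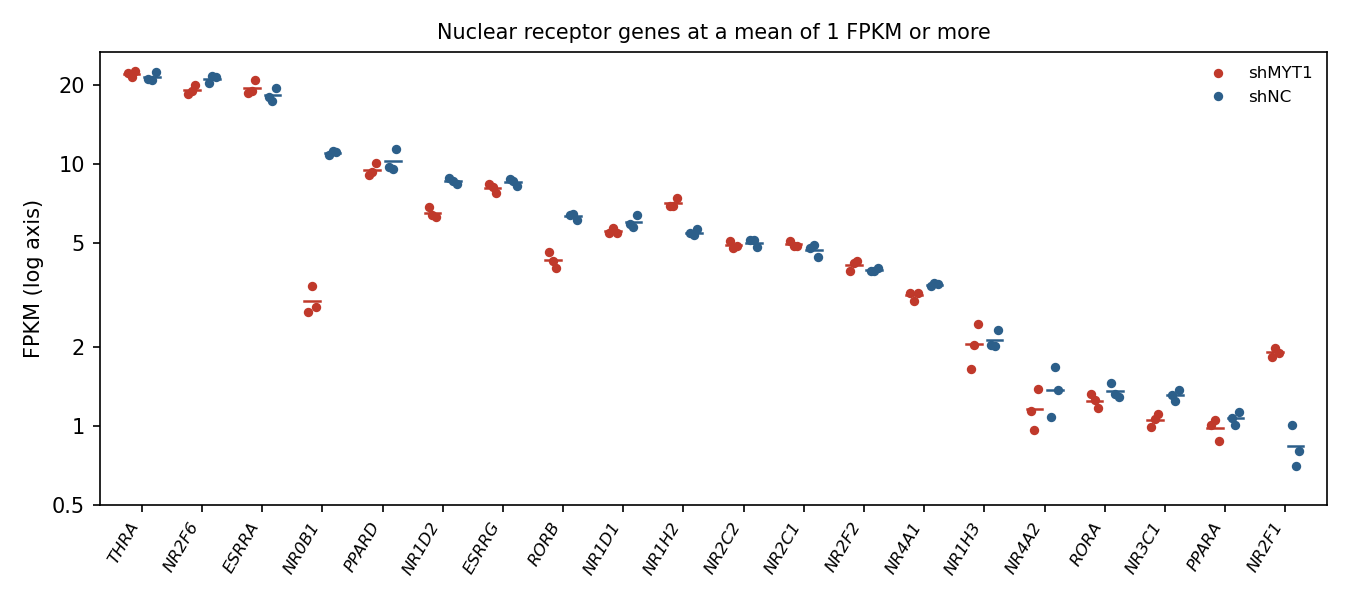
FPKM on a log axis for the 20 tested receptor genes, ordered by their shNC mean. Each point is 1 library, shMYT1 (red) left of shNC (blue), and bars are means of 3. NR0B1, RORB and NR1D2 lay lower in every shMYT1 library and NR2F1 and NR1H2 higher.

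NR0B1 (ENSG00000169297, chromosome X, 30304206 to 30309598, minus strand, hg38) was measured at 2.73, 3.44 and 2.86 FPKM in the shMYT1 libraries, against 10.8, 11.2 and 11.2 FPKM in the shNC libraries. The highest shMYT1 library lay far below the lowest shNC library. The means were 3.01 ± 0.38 FPKM in shMYT1 and 11.1 ± 0.21 FPKM in shNC (SD, n = 3 each), a difference of -72.8%. On the log2(FPKM + 1) scale NR0B1 fell by 1.59, with an SE of 0.07 and a 95% interval of -1.76 to -1.43 (limma adjusted p = 6.25e-05). Between 112 and 134 fragments lay behind each shMYT1 value and between 513 and 519 behind each shNC value. A fall of at least 1 on the log2 scale was seen in 0.34% of all genes tested, and NR0B1 was number 10 in order of fall. Its 50 nearest tested neighbours on the X chromosome had a median log2 fold change of -0.03. NR0B1 made up 2.08 to 2.62% of the summed FPKM of the 33 receptor genes in shMYT1 and 7.54 to 7.84% in shNC. Among the 33 genes it stood at place 14 by mean level in shMYT1 and at place 4 in shNC.

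The summed FPKM of all 33 receptors was 131.1 to 135.9 in shMYT1 and 143.2 to 148.1 in shNC. Without NR0B1 the sums were 127.9 to 133.1 FPKM in shMYT1 and 132.0 to 136.9 FPKM in shNC, which overlapped. NR0B2 (SHP), the other receptor of the NR0B group, was near 0, with 0 to 2 fragments per library in either group. SF-1 (NR5A1), the best known partner of NR0B1, is among the genes not analysed here.

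The COUP-TF genes encode orphan receptors that act mostly as repressors. NR2F1 (COUP-TF1, ENSG00000175745, chromosome 5, 93583224 to 93594615, plus strand) was measured at 1.84, 1.99 and 1.90 FPKM in shMYT1, against 1.01, 0.703 and 0.806 FPKM in shNC. Every shMYT1 library lay above every shNC library, and the mean was 128% higher in shMYT1. The difference was 0.67 on the log2 scale, with an SE of 0.09 and a 95% interval of 0.46 to 0.88 (limma adjusted p = 0.00295), and it was 1.11 with a pseudocount of 0.1 in place of 1. NR2F1 passed the filter only through its shMYT1 values, as its shNC mean of 0.839 FPKM lay under 1. In the fit of all gene IDs without that filter it still passed (limma adjusted p = 0.0115), beside 7.89% of all gene IDs. NR2F1 shares 3.66% of its exon bases with the antisense gene NR2F1-AS1, and no strand setting is stated. NR2F1-AS1 itself was at 0.323 ± 0.14 FPKM in shMYT1 and 0.194 ± 0.04 FPKM in shNC (SD, n = 3 each), with overlap between the groups.

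NR2F2 (COUP-TF2) averaged 4.13 ± 0.20 FPKM in shMYT1 and 3.94 ± 0.07 FPKM in shNC (SD, n = 3 each; log2 difference 0.05, 95% interval -0.06 to 0.16, limma adjusted p = 0.444). NR2F6 (EAR2), a more distant member, was measured at 18.6, 19.1 and 20.1 FPKM in shMYT1 and 20.4, 21.7 and 21.5 FPKM in shNC. Its groups did not overlap, and its log2 fold change was -0.13 (95% interval -0.23 to -0.03, limma adjusted p = 0.0601). NR2F6 passed without shMYT1 replicate 3 (limma adjusted p = 0.0485) and in 5 other settings. The 50 nearest genes on the short arm of chromosome 19 had a median difference of -0.12 on the log2 scale, and with that regional median removed NR2F6 was at -0.02 (limma adjusted p = 0.756). It shares 8.26% of its exon bases with AC010646.1 on the same strand.

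REV-ERB and ROR receptors bind the same DNA element, REV-ERB repressing and ROR activating clock genes such as ARNTL (BMAL1). RORB, the ROR gene of brain and retina (ENSG00000198963, chromosome 9, 74497365 to 74693177, plus strand), was measured at 4.64, 4.28 and 4.01 FPKM in shMYT1, against 6.42, 6.43 and 6.12 FPKM in shNC. It was lower in every shMYT1 library, by 31.9% in the means (log2 fold change -0.47, SE 0.05, limma adjusted p = 0.00172). NR1D2 (REV-ERB beta, ENSG00000174738, chromosome 3, 23945260 to 23980618, plus strand) was measured at 6.84, 6.42 and 6.30 FPKM in shMYT1, against 8.83, 8.63 and 8.38 FPKM in shNC. It too was lower in every shMYT1 library, by 24.3% in the means (log2 fold change -0.35, SE 0.04, limma adjusted p = 0.00188). Both kept their calls in all 17 alternative settings. Each of these values rests on 651 to 1323 fragments.

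NR1D1 (REV-ERB alpha) was measured at 5.46, 5.71 and 5.46 FPKM in shMYT1 and 5.91, 5.76 and 6.42 FPKM in shNC. The groups did not overlap, though the gap between them was small, and NR1D1 did not pass (log2 fold change -0.10, 95% interval -0.22 to 0.01, limma adjusted p = 0.171). NR1D1 and THRA are transcribed towards each other and share 263 exon bases at their ends, 9.49% of those of NR1D1 and 3.78% of those of THRA, so fragments there cannot be assigned with certainty. RORA averaged 1.25 ± 0.08 FPKM in shMYT1 and 1.36 ± 0.09 FPKM in shNC (SD, n = 3 each; log2 difference -0.07, limma adjusted p = 0.571).

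Of 15 tested circadian clock genes, 3 fell, 0 rose and 12 did not pass, with a median log2 fold change of -0.02. Among all genes tested 24.2% passed, so the clock list as a whole was near the background. HLF, a clock-output transcription factor gene, was at 2.35 ± 0.02 FPKM in shMYT1 and 3.70 ± 0.22 FPKM in shNC (SD, n = 3 each; log2 difference -0.49, limma adjusted p = 0.00147). CRY1, a repressor of the clock loop, was at 7.11 ± 0.18 FPKM in shMYT1 and 9.29 ± 0.16 FPKM in shNC (SD, n = 3 each; log2 difference -0.34, limma adjusted p = 0.00107). PER1 fell by 0.20 on the log2 scale (limma adjusted p = 0.0183), but lost its call without shNC replicate 2 (adjusted p = 0.0685) and without each shMYT1 replicate (adjusted p = 0.0507 to 0.0541). ARNTL, the target that both receptor groups act on, was at 1.26 ± 0.05 FPKM in shMYT1 and 1.25 ± 0.15 FPKM in shNC (SD, n = 3 each; limma adjusted p = 0.968). It was named for that role and not by the rule for named genes.

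The liver X receptors NR1H2 and NR1H3 sense oxysterols and drive cholesterol export. NR1H2 (LXR beta, ENSG00000131408, chromosome 19, 50329653 to 50382982, plus strand) was measured at 6.96, 6.93 and 7.44 FPKM in shMYT1, against 5.46, 5.36 and 5.64 FPKM in shNC. Every shMYT1 library was higher (log2 fold change 0.32, SE 0.04, limma adjusted p = 0.00275), with 422 to 521 fragments per library. The 50 nearest tested genes on the long arm of chromosome 19 had a median log2 fold change of 0.25. With that regional median removed, NR1H2 was at 0.05 and did not pass (limma adjusted p = 0.382), so its rise was about that of its neighbours. NR1H3 (LXR alpha) averaged 2.05 ± 0.39 FPKM in shMYT1 and 2.13 ± 0.18 FPKM in shNC (SD, n = 3 each), and its log2 fold change of -0.05 (limma adjusted p = 0.792) turned positive without shMYT1 replicate 1 (0.050) or shNC replicate 3 (0.00097).

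Of 7 tested LXR target genes, 0 rose, 2 fell and 5 did not pass, with a median log2 fold change of -0.09. Among all genes tested, 11.9% rose and 12.3% fell. MYLIP, the ubiquitin ligase that degrades the LDL receptor, was at 3.68 ± 0.14 FPKM in shMYT1 and 5.02 ± 0.45 FPKM in shNC (SD, n = 3 each; log2 difference -0.36, limma adjusted p = 0.00918). SCD, the stearoyl-CoA desaturase gene, was at 98.7 ± 2.98 FPKM in shMYT1 and 112 ± 2.49 FPKM in shNC (SD, n = 3 each; log2 difference -0.19, limma adjusted p = 0.00752). The 5 LXR target genes that encode ABC transporters were under the filter, and those named here were named after their values were seen. ABCA1, a cholesterol exporter, averaged 0.563 FPKM in shMYT1 and 0.871 FPKM in shNC, lower in every shMYT1 library. ABCG1, another exporter, averaged 0.492 FPKM in shMYT1 and 0.363 FPKM in shNC, higher in every shMYT1 library. ABCG4 averaged 0.563 FPKM in shMYT1 and 0.508 FPKM in shNC, with overlap, and ABCG5 and ABCG8 reached at most 0.0422 FPKM.

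**Figure D2:**
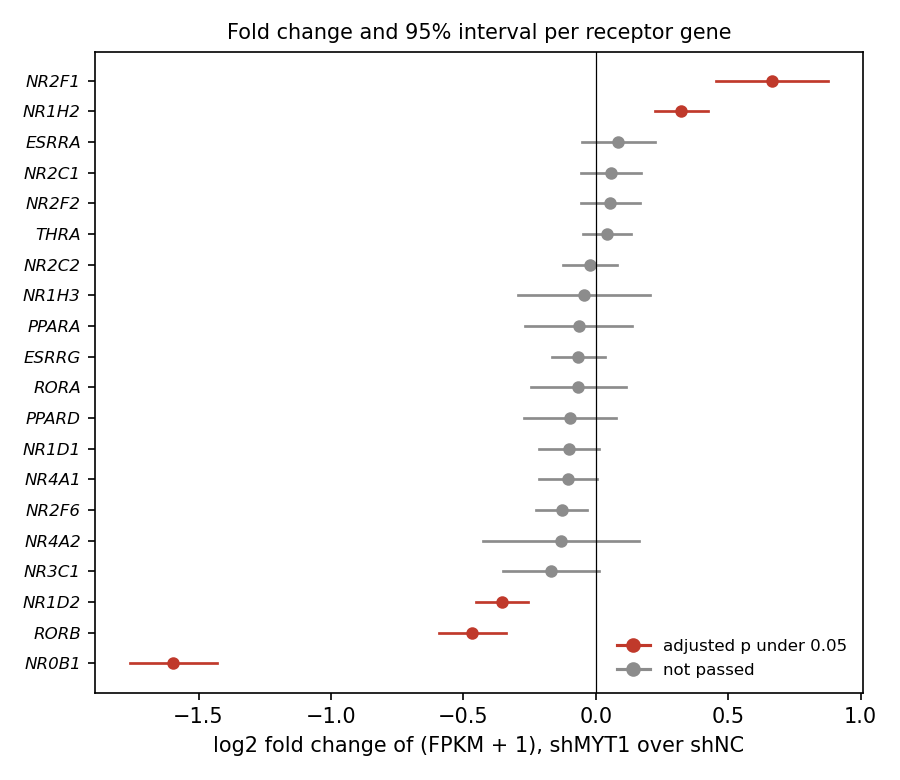
Log2 fold change (FPKM + 1, shMYT1 over shNC) of the 20 tested receptor genes, with the 95% interval from limma. Red marks the 5 genes with adjusted p under 0.05. NR0B1 lay at -1.59 and NR2F1 at 0.67, and the 15 genes in grey lay within 0.17 of 0.

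Hormone and fatty acid receptors of the first receptor class were expressed at unlike levels and none passed. THRA, a thyroid hormone receptor gene, was the highest receptor in either group, at 22.2 ± 0.58 FPKM in shMYT1 and 21.5 ± 0.86 FPKM in shNC (SD, n = 3 each; log2 difference 0.04, 95% interval -0.05 to 0.13, limma adjusted p = 0.466). Its paralogue THRB was at most 0.0107 FPKM in any library. PPARD averaged 9.51 ± 0.55 FPKM in shMYT1 and 10.3 ± 1.04 FPKM in shNC (SD, n = 3 each; log2 difference -0.10, limma adjusted p = 0.373). PPARA, which drives fatty acid oxidation in liver, averaged 0.981 ± 0.09 FPKM in shMYT1 and 1.07 ± 0.06 FPKM in shNC (SD, n = 3 each; log2 difference -0.06, limma adjusted p = 0.621).

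Of the 12 listed genes of thyroid hormone supply and response, 5 were tested. Of these, 2 rose and 3 fell, beside 11.9% up and 12.3% down among all genes tested. Of the genes that fell, DIO3 and SLC7A5 act on hormone supply. DIO3, the deiodinase that inactivates thyroid hormone, was at 2.46 ± 0.33 FPKM in shMYT1 and 3.64 ± 0.12 FPKM in shNC (SD, n = 3 each; log2 difference -0.43, limma adjusted p = 0.00893). SLC7A5, an amino acid transporter that also carries thyroid hormone, fell by 0.16 (limma adjusted p = 0.0168), a call lost without shMYT1 replicate 1 (adjusted p = 0.0548) or shNC replicate 2 (adjusted p = 0.0511). The thyroid hormone response gene KLF9 rose by 0.26 (limma adjusted p = 0.0394), a call lost without any library other than shMYT1 replicate 3 (adjusted p up to 0.116). The other gene that rose was HR, a corepressor of the thyroid hormone receptor, by 0.12 (limma adjusted p = 0.0355). The count of this list was 2 or 3 in place of 5 without any library other than shMYT1 replicate 3, and KLF9 and HR did not pass after rescaling all libraries to the same FPKM total.

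Of 9 tested PPAR targets, 3 rose and 1 fell, beside 11.9% up and 12.3% down among all genes tested. CPT1A, which admits long-chain fatty acids to mitochondria, was at 18.1 ± 0.18 FPKM in shMYT1 and 11.1 ± 0.47 FPKM in shNC (SD, n = 3 each; log2 difference 0.66, limma adjusted p = 0.000145). ACADVL and HADHA, enzymes of fatty acid oxidation, rose by 0.36 (limma adjusted p = 0.00151) and 0.14 (limma adjusted p = 0.00593). PLIN2, a lipid droplet protein gene, fell by 0.29 (limma adjusted p = 0.00756). The median log2 fold change of the 9 genes was -0.06.

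The estrogen-related receptors ESRRA and ESRRG are orphans that drive mitochondrial genes. ESRRA averaged 19.6 ± 1.24 FPKM in shMYT1 and 18.4 ± 1.09 FPKM in shNC (SD, n = 3 each; log2 difference 0.08, 95% interval -0.05 to 0.22, limma adjusted p = 0.338). It shares 9.37% of its exon bases with TRMT112 on the opposite strand. ESRRG averaged 8.14 ± 0.33 FPKM in shMYT1 and 8.57 ± 0.26 FPKM in shNC (SD, n = 3 each; log2 difference -0.07, limma adjusted p = 0.298). Of 6 tested ERR targets, 2 rose and 1 fell, beside 11.9% up and 12.3% down among all genes tested. The ATP synthase gene ATP5F1B rose by 0.18 (limma adjusted p = 0.00435), and MFN2, a mitochondrial fusion gene, fell by 0.18 (limma adjusted p = 0.0131; 0.0521 without shMYT1 replicate 1).

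NR3C1, the glucocorticoid receptor gene, was measured at 0.989, 1.07 and 1.12 FPKM in shMYT1, against 1.31, 1.25 and 1.38 FPKM in shNC. All shMYT1 libraries lay lower, and the log2 fold change was -0.17 (95% interval -0.35 to 0.01, limma adjusted p = 0.160). It passed with voom on recovered fragments (log2 fold change -0.32, limma adjusted p = 0.0156), with no variance trend (adjusted p = 0.0348) and among protein-coding genes only (adjusted p = 0.0479). Of 12 tested glucocorticoid target genes, 6 fell and 1 rose, beside 12.3% down and 11.9% up among all genes tested, with a median log2 fold change of -0.17. SGK1, a kinase gene induced by corticosteroids, was at 3.61 ± 0.06 FPKM in shMYT1 and 5.31 ± 0.15 FPKM in shNC (SD, n = 3 each; log2 difference -0.45, limma adjusted p = 0.000712). DDIT4, an inhibitor of mTORC1 signalling, fell by 0.34 (limma adjusted p = 0.0161), a call lost without shMYT1 replicate 1 (adjusted p = 0.0553) or shNC replicate 2 (adjusted p = 0.0581). The metallothionein gene MT1X fell by 0.33 (limma adjusted p = 0.0227), a call lost without any library other than shMYT1 replicate 1 (adjusted p up to 0.0681), and metallothionein genes are near-identical copies, so its value is uncertain. FKBP5, a standard glucocorticoid target, was at 22.5 ± 0.52 FPKM in shMYT1 and 21.0 ± 0.52 FPKM in shNC (SD, n = 3 each; limma adjusted p = 0.0783), named after its values were seen. The count of this list was 3 in place of 7 without shMYT1 replicate 1 or shNC replicate 2, and 4 without shMYT1 replicate 2.

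The NR4A genes are immediate early genes whose proteins need no ligand. NR4A1 was measured at 3.22, 3.02 and 3.23 FPKM in shMYT1 and 3.42, 3.51 and 3.48 FPKM in shNC. All shMYT1 libraries lay lower by a narrow gap, and the gene did not pass (log2 fold change -0.11, limma adjusted p = 0.148). It shares 10.3% of its exon bases with a long noncoding gene on the other strand. NR4A2, a factor of dopamine neurons, varied more among replicates, with 1.14, 0.969 and 1.39 FPKM in shMYT1 and 1.08, 1.68 and 1.37 FPKM in shNC (limma adjusted p = 0.489). NR4A3 had 14 to 27 fragments per library. Of 8 tested immediate early genes, 1 rose, 1 fell and 6 did not pass, beside 11.9% up and 12.3% down among all genes tested. IER3, an apoptosis regulator, rose by 0.38 (limma adjusted p = 0.00371), and ARC, a synaptic plasticity gene, fell by 0.23 (limma adjusted p = 0.0372). The ARC call was lost without any library other than shNC replicate 1 (adjusted p up to 0.109). With the median of its neighbouring genes removed, ARC was at -0.12 and did not pass (limma adjusted p = 0.234). The count depended on the setting: 3 fell after rescaling to the same FPKM total, and 4 fell with voom and among protein-coding genes only, with 1 up each time. JUN, JUNB and EGR1, named after their values were seen, did not pass (limma adjusted p = 0.0989, 0.0584 and 0.0771), though each was lower in every shMYT1 library. Under the filter, and likewise named afterwards, FOS averaged 0.556 FPKM in shMYT1 and 1.14 FPKM in shNC. FOSB averaged 0.0293 and 0.108 FPKM. Both were lower in every shMYT1 library, and neither passed in the fit without a filter (limma adjusted p = 0.0519 and 0.0915). EGR2, EGR3 and NPAS4, also under the filter, overlapped between the groups.

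The testicular receptors NR2C1 and NR2C2, orphan receptors present in many tissues, did not pass. NR2C1 averaged 4.95 ± 0.14 FPKM in shMYT1 and 4.72 ± 0.26 FPKM in shNC (SD, n = 3 each; log2 difference 0.06, limma adjusted p = 0.438). NR2C2 averaged 4.93 ± 0.15 FPKM in shMYT1 and 5.02 ± 0.18 FPKM in shNC (SD, n = 3 each; log2 difference -0.02, limma adjusted p = 0.737). It shares 10.1% of its exon bases with MRPS25 on the opposite strand.

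The other 13 receptors lay under the filter, at a mean below 1 FPKM, and none passed in the fit without a filter (limma adjusted p = 0.218 to 0.98). HNF4G, a receptor of gut and pancreas, was the highest, at 0.532, 0.435 and 0.469 FPKM in shMYT1 and 0.649, 0.615 and 0.546 FPKM in shNC. PPARG, the adipocyte regulator, was measured at 0.322, 0.294 and 0.376 FPKM in shMYT1 and 0.127, 0.283 and 0.130 FPKM in shNC, with the groups just apart (limma adjusted p = 0.218). VDR, the vitamin D receptor gene, had 29 to 36 fragments in shMYT1 and 42 to 62 in shNC. NR1I3 (CAR) had 10 to 12 fragments in shMYT1 and 14 to 22 in shNC, and shares 20% of its exon bases with TOMM40L on the opposite strand. The estrogen receptor gene ESR1 had 9 to 26 fragments in shMYT1 and 26 to 27 in shNC, and ESR2 had 6 to 17 fragments in shMYT1 and 15 to 30 in shNC. NR6A1 (GCNF) had 33 to 44 fragments in shMYT1 and 29 to 49 in shNC. NR2E3, a photoreceptor gene, NR3C2, the mineralocorticoid receptor gene, and NR0B2 had at most 14 fragments in any library. ESRRB was at most 0.0335 FPKM.

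**Figure D3:**
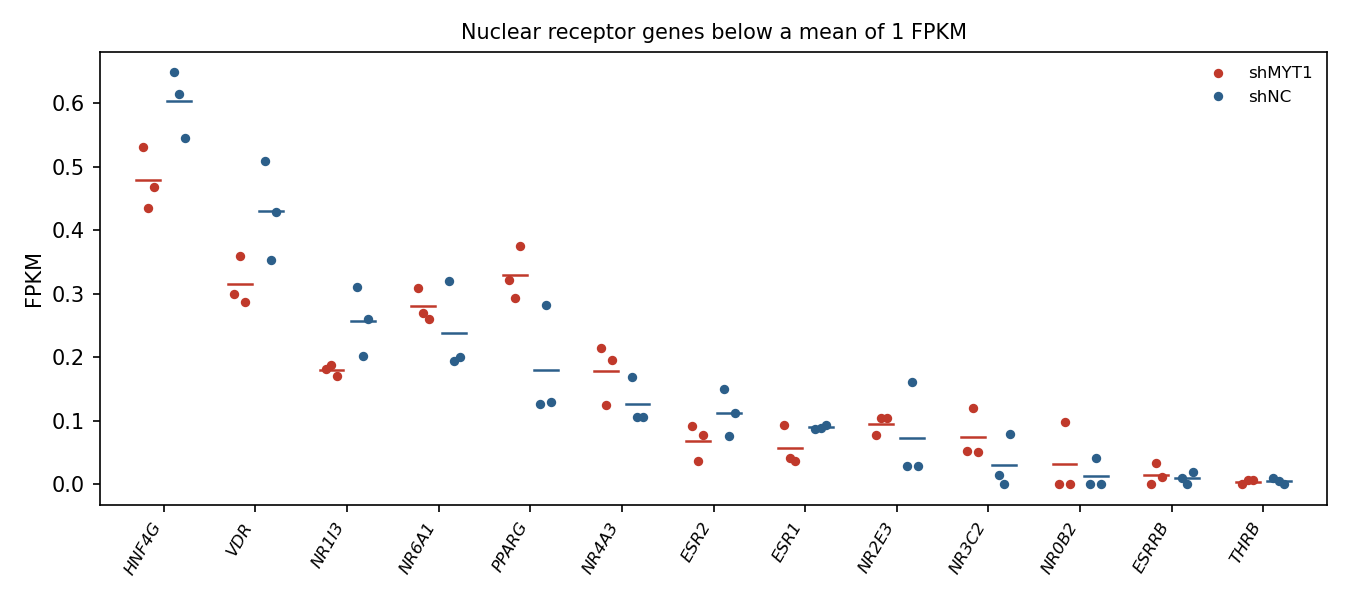
FPKM of the 13 receptor genes below a mean of 1 FPKM, ordered by their shNC mean, with 1 point per library, shMYT1 (red) left of shNC (blue), and bars for means of 3. HNF4G, NR1I3 and PPARG are the genes whose groups did not overlap, and none passed in the fit without a filter.

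The share of each gene in the summed FPKM of its pair was taken per library, for 5 pairs. NR2F1 made up 31.6 ± 0.74% of the NR2F1 and NR2F2 sum in shMYT1 and 17.5 ± 2.70% in shNC (SD, n = 3 each). NR1D2 made up 54.0 ± 1.42% of the REV-ERB pair in shMYT1 and 58.8 ± 1.90% in shNC. RORB made up 77.5 ± 0.28% of the RORB and RORA sum in shMYT1 and 82.3 ± 0.75% in shNC. NR1H2 made up 77.7 ± 2.79% of the LXR pair in shMYT1 and 72.0 ± 1.15% in shNC. In these 4 pairs the groups did not overlap, and each holds a receptor that passed above, so the shares describe those same differences. ESRRG made up 29.4 ± 2.10% of the ESRRG and ESRRA sum in shMYT1 and 31.8 ± 1.83% in shNC, with overlap. An exact permutation test of 3 libraries against 3 cannot go below p = 0.1, so no pair could pass.

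**Figure D4:**
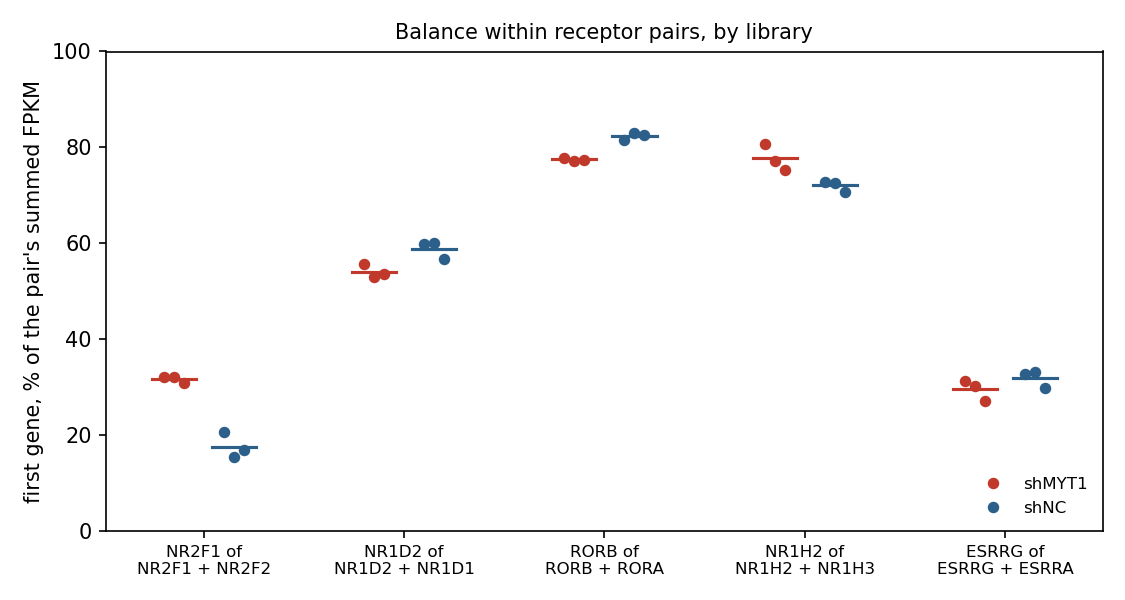
Share of the first-named gene in the summed FPKM of 5 receptor pairs, with 1 point per library, shMYT1 (red) left of shNC (blue), and bars for means of 3. NR2F1 took 30.8 to 32.1% of its pair in shMYT1 and 15.3 to 20.5% in shNC.

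Among the factors that receptors work with, both tested RXR genes, the shared heterodimer partners, did not pass: RXRA averaged 4.68 FPKM in shMYT1 and 4.63 FPKM in shNC, and RXRB averaged 15.8 FPKM in shMYT1 and 15.3 FPKM in shNC. Of 12 tested coactivator genes, 2 rose and 1 fell, beside 11.9% up and 12.3% down among all genes tested. NCOA2, a p160 coactivator, was at 7.07 ± 0.23 FPKM in shMYT1 and 10.3 ± 0.18 FPKM in shNC (SD, n = 3 each; log2 difference -0.49, limma adjusted p = 0.000413), beside a median of -0.16 over its 50 nearest genes on chromosome 8. PRMT1, an arginine methyltransferase, rose by 0.35 (limma adjusted p = 0.00157), beside 0.32 over its neighbours on chromosome 19, and did not pass with the regional median removed (adjusted p = 0.699). MED24, a Mediator subunit, rose by 0.16 (limma adjusted p = 0.0443), a call lost without any library other than shMYT1 replicate 2 (adjusted p up to 0.130).

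Of 12 tested corepressor genes, 2 rose and 3 fell, beside 11.9% up and 12.3% down among all genes tested. NRIP1 (RIP140), a ligand-dependent corepressor, was at 7.15 ± 0.17 FPKM in shMYT1 and 8.85 ± 0.44 FPKM in shNC (SD, n = 3 each; log2 difference -0.27, limma adjusted p = 0.00598). TBL1X, a subunit of the NCOR complexes, fell by 0.24 (limma adjusted p = 0.00783). NCOR1, which anchors such complexes, fell by 0.15 (limma adjusted p = 0.0442). The NCOR1 call was lost without each of the 6 libraries in turn (adjusted p = 0.0544 to 0.137). With the regional median removed, NCOR1 was at -0.04 and did not pass (limma adjusted p = 0.578). The count of this list was 2 or 3 in place of 5 without any 1 library.

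Of 10 tested genes of the chaperone complex that holds steroid receptors, 5 fell and 0 rose, beside 12.3% down and 11.9% up among all genes tested, with a median log2 fold change of -0.10. HSP90AA1 was at 311 ± 17.3 FPKM in shMYT1 and 371 ± 6.40 FPKM in shNC (SD, n = 3 each; log2 difference -0.26, limma adjusted p = 0.00660). HSPA8, DNAJA1 and FKBP4 fell by 0.16, 0.14 and 0.12 (limma adjusted p = 0.0193, 0.0253 and 0.0423), and the 5th was STIP1, by 0.12 (limma adjusted p = 0.0219). The count was 1 or 2 without shMYT1 replicate 1 or 3 or shNC replicate 1 or 2, and FKBP4 lost its call without any 1 library (adjusted p = 0.0571 to 0.110). With the regional median removed, HSPA8 was at -0.08 and did not pass (limma adjusted p = 0.187). HSP90 and HSPA8 genes have processed pseudogenes, so their values are uncertain.

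Of 13 genes of steroid hormone synthesis found, 5 passed the filter and were tested, and 0 rose and 0 fell. SF-1 is known to activate and NR0B1 to repress such genes. The highest were SCARB1, a cholesterol uptake receptor, at 18.3 FPKM in shMYT1 and 16.7 FPKM in shNC (limma adjusted p = 0.0702, and 0.0193 with voom), and FDX1, an electron donor for steroid enzymes, at 7.13 FPKM in shMYT1 and 7.64 FPKM in shNC (limma adjusted p = 0.148). STAR, which moves cholesterol into mitochondria, reached at most 0.559 FPKM in any library. Of vitamin D genes only CYP2R1, a vitamin D 25-hydroxylase, was tested, at 2.97 FPKM in shMYT1 and 3.45 FPKM in shNC (limma adjusted p = 0.0950), and CYP27A1 averaged 0.890 FPKM in shMYT1 and 0.830 FPKM in shNC.

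Of 8 tested estrogen targets known from breast cells, 2 rose and 3 fell, beside 11.9% up and 12.3% down among all genes tested. In the SK-N-BE(2) libraries, ESR1 and ESR2 reached at most 0.0940 and 0.150 FPKM. CXCL12, a chemokine gene, was at 8.49 ± 0.39 FPKM in shMYT1 and 3.66 ± 0.07 FPKM in shNC (SD, n = 3 each; log2 difference 1.02, limma adjusted p = 6.25e-05). CCND1, the cyclin D1 gene, fell by 0.48 (limma adjusted p = 7.91e-05) and CA12, a carbonic anhydrase gene, rose by 0.30 (limma adjusted p = 0.0146). The CA12 call was lost without shMYT1 replicate 1 (adjusted p = 0.0544) or shNC replicate 2 (adjusted p = 0.0538). The count of this list was 3 in place of 5 without either of these libraries. MYB, a transcription factor gene, fell by 0.32 (limma adjusted p = 0.0445), a call lost without any library other than shNC replicate 3 (adjusted p up to 0.122).

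Across the 105 distinct partner and target genes tested, 13 rose and 27 fell, beside 11.9% up and 12.3% down among all genes tested. The lists were chosen with earlier results of these data known. The shares here and for each list above are therefore not an independent comparison with all genes tested. DDIT4, IER3 and CCND1 share 10.3 to 41.2% of their exon bases with an antisense neighbour, and MT1X shares 18.1% with a gene on its own strand.

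**Figure D5:**
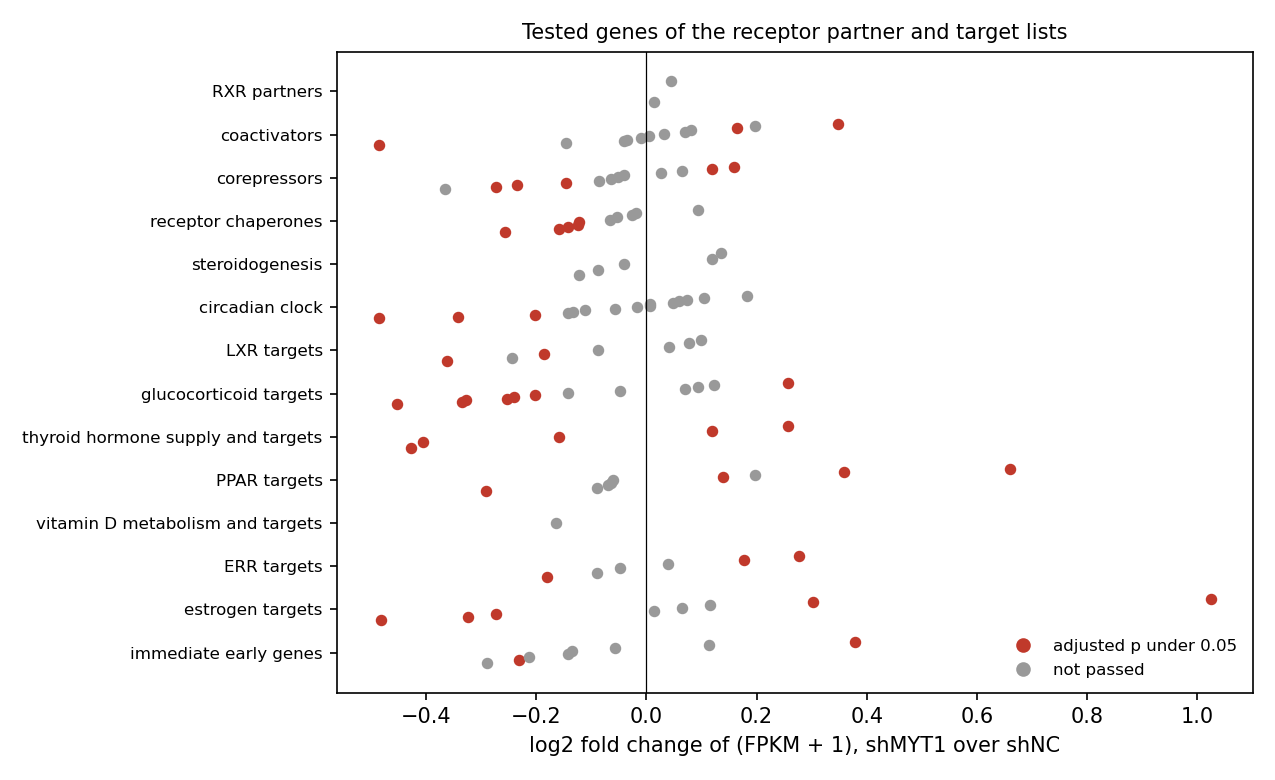
Log2 fold change (FPKM + 1, shMYT1 over shNC) of every tested gene in 14 partner and target lists. Each point is 1 gene, red where adjusted p was under 0.05. Chaperone, clock and LXR target genes that passed all lay below 0. The RXR, steroidogenesis and vitamin D lists had no red points, and the other lists had red points on both sides.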

How the data were processed

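The authors deposited 1 table of FPKM values, 1 column per library, per the file headers. The submitters' processing notes name hg38, HISAT2 2.0.5 and featureCounts 1.5.0-p3. No source used here states the annotation, a strand setting or a filter. Symbols, exon lengths and hg38 positions came from GENCODE 29, which held 32301 of the 32434 gene IDs, and promoters from RefSeq (GRCh38.p14). FPKM times exon length gave whole numbers of fragments (tolerance 0.01, every library) for 95.4% of the matched IDs. Fragment counts are given for those only, so NR2F1 has none. Their precision is that of counting alone. The two-sided test was limma 3.58.1 in R 4.3.3, with a trend of variance on level, run on log2(FPKM + 1) for genes averaging 1 FPKM or more. Benjamini-Hochberg adjustment ran over all genes tested. That scale understates changes of low genes. The fit was tested on simulated data that gave every gene the same added spread. That checks the code and not how reliable small changes are in these data.

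The receptors and lists were chosen with earlier results of these data known. Named genes are MYT1, every receptor, and per list up to 4 genes past the threshold with the largest change, or the 2 highest genes where none passed. Exceptions are stated, and STIP1, HR and ARNTL are among them. Some named genes are not reported here.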

Additional observations from a re-analysis of the deposited data

How the results depend on the processing

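NR0B1, RORB, NR1D2 and NR2F1 kept their calls in each alternative that could be run (15 for NR2F1, 17 for the others), with NR0B1 at -1.89 to -1.54. NR2F1 had no value with voom or with a minimum of 5 FPKM. NR1H2 lost its call in 1 of 17, with the median of neighbouring genes removed. The number of receptors past the threshold was 4 to 7, against 5. The number of all genes past it was 3420 and ranged from 2038 to 3048 when 1 library was left out (2196 without shMYT1 replicate 1, 2195 without shNC replicate 1, 2038 without shNC replicate 2). For the listed partner and target genes it was 40 and ranged from 23 to 36 (23 without shMYT1 replicate 1, 25 without shNC replicate 2). These fits have fewer samples. On rescaling to the same FPKM total, 36.4% of all calls were higher in shMYT1, against 49.2% as deposited, with 2 receptors up and 4 down.

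Signs turned for genes that had not passed. NR1H3 ranged from -0.14 to 0.050 when 1 library was left out. RXRA ranged from -0.0072 to 0.047 then, with -0.017 after rescaling and -0.068 with the running median of 51 neighbouring genes removed. That last setting gave 0.028 for ESRRG and -0.013 for RXRB. The cause was not tested. Of 36 named partner and target genes past the threshold, 16 lost the call in at least 1 alternative. Among these, PRMT1, MED24, NCOR1, HSPA8, PER1, MYB and ARC lost it with the running median of neighbouring genes removed. With the replicate number as a block, 3381 of all genes and 6 receptors passed, NR2F6 being added (adjusted p = 0.0383). Deviations of same-numbered libraries correlated at 0.01 to 0.04. Each library correlated best with its own number, but those of unlike numbers, at -0.039 to 0.0083, were near 0 as well. Whether same-numbered libraries were paired cannot be told from these values.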
